A study of Mus musculus with 6 samples.

Results

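Protamines and transition proteins are the small proteins that replace histones on the DNA of elongating spermatids. Their mRNA was examined through 5 genes, Prm1, Prm2, Prm3, Tnp1 and Tnp2, taken by name from the annotation of mouse transcripts. These genes have 7 annotated transcripts, of which 6 were among the 27120 transcripts measured, and Prm1-202 was not analysed here. The 5 genes stood among 14000 genes with at least 1 measured transcript. The data are poly(A) RNA profiles of whole testes from 6 wild-type C57BL/6N males, with 3 libraries in each of 2 groups. H+H+Cd males (the study's HFD2D group) were F2 animals, after 2 successive paternal generations on a high-fat diet. H+Cd males (HFD1D) were F1 animals, after 1 paternal generation on that diet. The fathers ate the high-fat diet from week 5 to week 15 of life, and the males of both groups drank water with CdCl2, a testicular toxicant, for 10 weeks. Diet history and generation go together and cannot be told apart here, and animals without CdCl2 or without a paternal high-fat diet were not analysed here.

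Spermatid chromatin is rebuilt in steps. Histones are first loosened and removed, the transition proteins TNP1 and TNP2 bind the DNA next, and the protamines PRM1 and PRM2 then pack it into the compact sperm nucleus. In mice, PRM2 is made as a longer precursor and is trimmed after it has been deposited on DNA. The mRNAs are transcribed in round spermatids, stored with RNA-binding proteins and translated later in elongating spermatids. Whole testis RNA pools every stage, so fewer elongating cells and less RNA per cell cannot be told apart in any value below.

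Of the 5 genes, 4 lie side by side on the minus strand of chromosome 16. On mm10 the measured transcripts are Prm1-201 at chr16:10796326-10796886, Prm2-201 at chr16:10791380-10792105, Prm3-201 at chr16:10790505-10790914 and Tnp2-201 at chr16:10787936-10788660. They span 8951 bases, with 4220 bases between Prm1-201 and Prm2-201, 465 between Prm2-201 and Prm3-201, and 1844 between Prm3-201 and Tnp2-201. Prm3-201 has 1 exon, whereas the main transcripts of the other 4 genes have 2. Prm2-202 starts further upstream and covers chr16:10791537-10796134 with 3 exons. Tnp1-201 lies apart at chr1:73015074-73015909, also on the minus strand, inside the antisense gene 1700027A15Rik, which was not analysed here. The libraries were stranded, but how the authors' tools assigned fragments by strand is not given in the sources used here. Whether exons of the antisense gene overlap Tnp1-201, and whether its reads entered the level of Tnp1, was not tested.

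The coding sequences show what separates Prm3 from its neighbours, and 3 are printed here because the results turn on Prm1 and Prm3, with Tnp1 for comparison. Codons for arginine or lysine, the basic residues that hold DNA, are in capitals. The sequences are GENCODE transcripts without the stop codon, and that of Prm3 is its first 165 of 303 coding bases.
Prm1-201: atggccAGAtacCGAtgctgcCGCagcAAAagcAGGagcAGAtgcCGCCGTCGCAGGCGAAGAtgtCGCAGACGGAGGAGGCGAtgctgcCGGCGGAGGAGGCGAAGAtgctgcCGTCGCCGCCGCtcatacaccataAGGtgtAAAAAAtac
Tnp1-201: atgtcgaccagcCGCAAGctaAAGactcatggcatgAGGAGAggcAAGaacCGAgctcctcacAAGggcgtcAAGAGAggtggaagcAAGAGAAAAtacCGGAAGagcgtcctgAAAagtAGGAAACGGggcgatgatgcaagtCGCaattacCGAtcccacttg
Prm3-201: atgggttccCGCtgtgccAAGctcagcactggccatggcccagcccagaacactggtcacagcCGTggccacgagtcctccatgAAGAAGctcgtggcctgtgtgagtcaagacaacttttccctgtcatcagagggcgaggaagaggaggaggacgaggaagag
Arginine or lysine filled 31 of 51 codons in Prm1 (60.8%), 41 of 107 in Prm2 (38.3%), 21 of 55 in Tnp1 (38.2%) and 27 of 117 in Tnp2 (23.1%). In Prm3 they filled 9 of 101 codons (8.91%), and 30 codons (29.7%) were for the acidic residues aspartate or glutamate. Acidic codons made up 0 of the codons of Prm1, 7.48% in Prm2, 3.64% in Tnp1 and 1.71% in Tnp2. Cysteine, whose bridges lock protamines together in mature sperm, took 17.6% of the codons of Prm1 and 1.98% of those of Prm3. Prm3 is thus a protamine by name and position, with a coding sequence that is acidic rather than basic, and in mice its protein has been located in the cytoplasm of elongated spermatids.

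**Figure D1:**
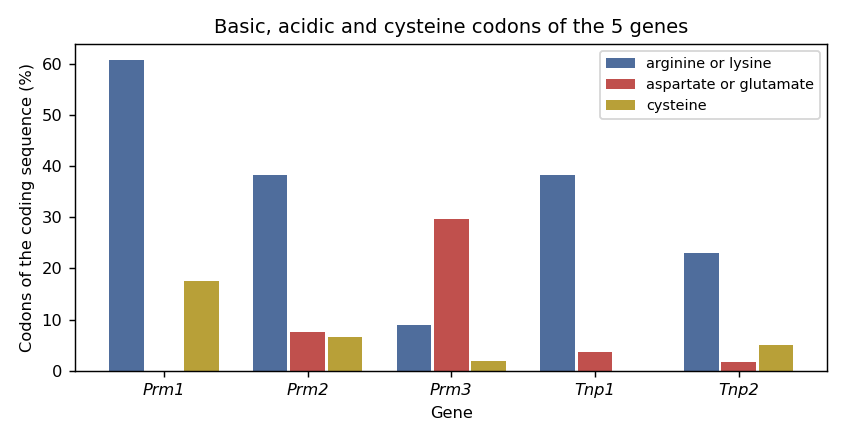
Share of codons (%, vertical axis) for arginine or lysine, for aspartate or glutamate and for cysteine in the coding sequence of each of the 5 genes (horizontal axis). Prm3 is the gene in which acidic codons (29.7%) outnumber basic ones (8.91%), while in Prm1 basic codons make up 60.8%.

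Levels are given as FPKM, the fragments of a transcript scaled to its length and to all mapped fragments of the library, and the level of a gene is the sum over its measured transcripts. The order of the levels was the same in all 6 libraries: Prm2, then Tnp1, Tnp2, Prm1 and, far below, Prm3. Prm2 held rank 1 and Tnp1 rank 2 among all genes of every library, Tnp2 rank 3 or 4, and Prm1 rank 4 to 6. By mean FPKM over the libraries, Smcp, a sperm mitochondrial capsule protein, and mt-Co1, a mitochondrial oxidase subunit, held ranks 4 and 5 between Tnp2 and Prm1. Prm3 had rank 170, 176 and 323 in H+H+Cd libraries, against 703, 684 and 712 in H+Cd libraries. Neighbours in this order were close. Prm2 exceeded Tnp1 by a factor of 1.02 to 1.33 within a library, Tnp1 exceeded Tnp2 by 1.205 to 1.32, and Tnp2 exceeded Prm1 by 1.0003 to 1.38, with the order kept each time. In H+H+Cd the means of all 3 neighbouring pairs differed by more than the SD of either gene. In H+Cd the means of Prm2 and Tnp1, and those of Tnp2 and Prm1, differed by less than the SD of either gene. Together the 5 genes took 3.53, 3.33 and 3.31% of the summed FPKM in H+H+Cd libraries, against 2.86, 4.02 and 4.13% in H+Cd libraries. The H+Cd libraries thus lay on both sides of the H+H+Cd libraries. Mitochondrial mRNAs, which enter the same sum, took 4.24, 4.08 and 4.68% in H+H+Cd libraries, against 3.84, 3.71 and 3.04% in H+Cd libraries, without overlap. Without them in the sum the 5 genes took 3.54 ± 0.120% in H+H+Cd and 3.798 ± 0.719% in H+Cd (SD, n = 3 each).

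Summed FPKM ran from 382815 to 397147 per library and read depth is unknown, since only FPKM values were used. The 17 measured markers of elongating spermatids summed to between 9778 and 11206 FPKM, which fits the tissue label. Markers of the epididymis, the duct beside the testis, stood out in 1 library: the 3 measured of 7 listed summed to 96.9 FPKM in H+H+Cd rep1, against 3.08 and 3.47 FPKM in the other H+H+Cd libraries and 3.13 to 3.79 FPKM in H+Cd libraries. In that library Crisp1 had 86.1 FPKM and Adam7 8.03 FPKM, and Adam7 was listed at 0 in the other 5. Each difference of the 5 genes is therefore also given without H+H+Cd rep1. A second library, H+Cd rep1, had the lowest level of 4 of the 5 genes and is likewise left out in turn.

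Prm3 was the gene of the 5 whose groups did not overlap, at higher levels in H+H+Cd. It had 280.1, 269 and 200.5 FPKM in H+H+Cd libraries, against 117, 122 and 114.5 FPKM in H+Cd libraries. The lowest H+H+Cd library lay well above the highest H+Cd library, and the 3 H+Cd libraries were tightly grouped. Means were 250.0 ± 43.2 and 117.9 ± 3.58 FPKM (SD, n = 3 each), a 2.12-fold difference. The log2 fold change on the log2(FPKM + 1) scale was 1.06 (95% interval 0.75 to 1.38), with an unadjusted p of 0.000144 by limma, rank 9 of 13769 genes tested. After Benjamini-Hochberg adjustment over all genes the limma p was 0.189, and over all transcripts 0.132, so Prm3 did not pass the threshold of 0.05. That threshold was passed by 1 gene (0.00726% of those tested) and by 33 transcripts (0.13%). Groups did not overlap, with H+H+Cd higher, in 8.34% of all genes, and 11.9% of genes had an unadjusted p below 0.05. Without H+H+Cd rep1 the log2 fold change of Prm3 was 0.97 (limma, adjusted p = 0.278). Without H+H+Cd rep3, the lowest of its group, it was 1.21 and passed the threshold (limma, adjusted p = 0.0236), and without H+Cd rep1 it was 1.06 (limma, adjusted p = 0.128).

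**Figure D2:**
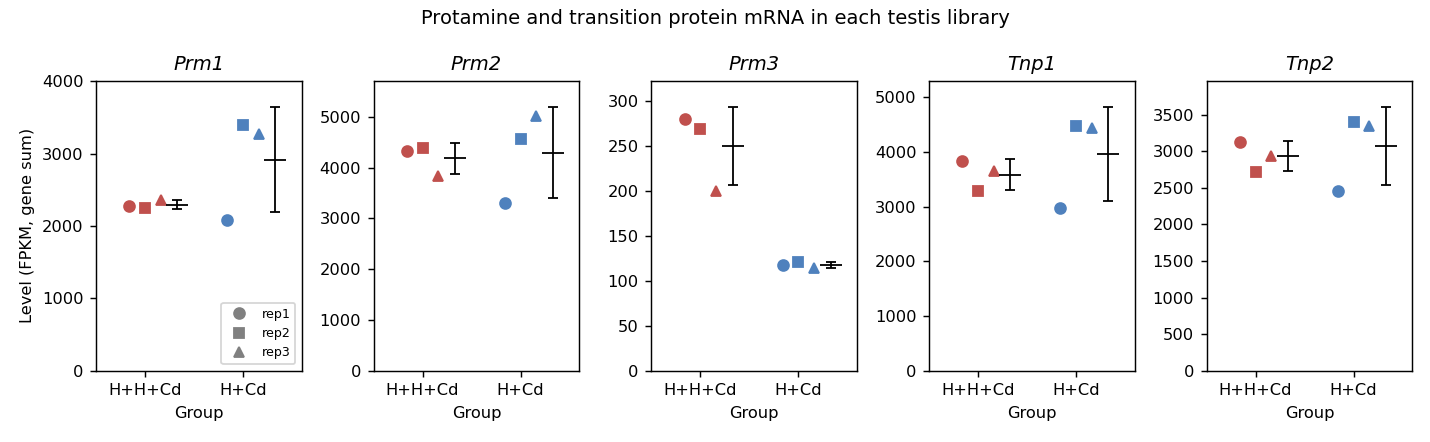
FPKM of each of the 5 genes (vertical axes, each starting at 0) in the H+H+Cd and H+Cd libraries (horizontal axes). Symbols mark replicates, and the bar beside them the mean with SD (n = 3). Prm3 lies between 200.5 and 280.1 FPKM in H+H+Cd and between 114.5 and 122 FPKM in H+Cd, while the H+Cd libraries of the other 4 genes spread widely, with rep1 lowest.

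Prm1, the protamine richest in arginine, had 2273, 2255 and 2364 FPKM in H+H+Cd libraries, against 2082, 3397 and 3269 FPKM in H+Cd libraries. The H+H+Cd libraries agreed closely, and H+Cd rep1 lay below all of them while the other 2 H+Cd libraries were above. Means were 2297 ± 58.2 and 2916 ± 725 FPKM (SD, n = 3 each), with a log2 fold change of -0.31 (95% interval -0.76 to 0.14; limma adjusted p = 0.543). Without H+Cd rep1 the log2 fold change was -0.54, at a limma adjusted p of 0.0934 over genes and of 0.0261 over transcripts, so 1 library decided whether the transcript Prm1-201 passed. Without H+H+Cd rep1 it was -0.30.

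Prm2, the other main protamine, had 4329, 4377 and 3833 FPKM in H+H+Cd libraries, against 3301, 4559 and 5022 FPKM in H+Cd libraries. The groups overlapped and their means nearly met, at 4180 ± 301 and 4294 ± 891 FPKM (SD, n = 3 each). The log2 fold change was -0.02 (95% interval -0.41 to 0.37; limma adjusted p = 0.972), and its sign changed when H+H+Cd rep3, H+Cd rep2 or H+Cd rep3 was left out. Nearly all of it came from Prm2-201. The longer Prm2-202 had 32.5, 25.5 and 33.3 FPKM in H+H+Cd libraries, against 28.8, 34.6 and 36.8 FPKM in H+Cd libraries. That was 0.734 ± 0.145% of the Prm2 sum in H+H+Cd and 0.788 ± 0.0750% in H+Cd (SD, n = 3 each), so the share of the longer transcript differed by less than the spread between libraries.

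Tnp1, the smaller and more abundant transition protein, had 3830, 3281 and 3651 FPKM in H+H+Cd libraries, against 2974, 4472 and 4435 FPKM in H+Cd libraries. Tnp2, a zinc-binding transition protein, had 3132, 2722 and 2938 FPKM in H+H+Cd libraries, against 2454, 3398 and 3349 FPKM in H+Cd libraries. Both genes overlapped between groups in the same way as Prm1 and Prm2, with H+Cd rep1 lowest and the other 2 H+Cd libraries highest. The log2 fold change was -0.12 for Tnp1 (95% interval -0.53 to 0.29; limma adjusted p = 0.790) and -0.05 for Tnp2 (95% interval -0.38 to 0.28; limma adjusted p = 0.896). Without H+Cd rep1 they were -0.32 and -0.20, and that of Prm2 was -0.20, none past the threshold (limma, lowest adjusted p = 0.172). Without H+H+Cd rep1 the log2 fold changes were -0.05 for Prm2, -0.17 for Tnp1 and -0.10 for Tnp2.

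**Figure D3:**
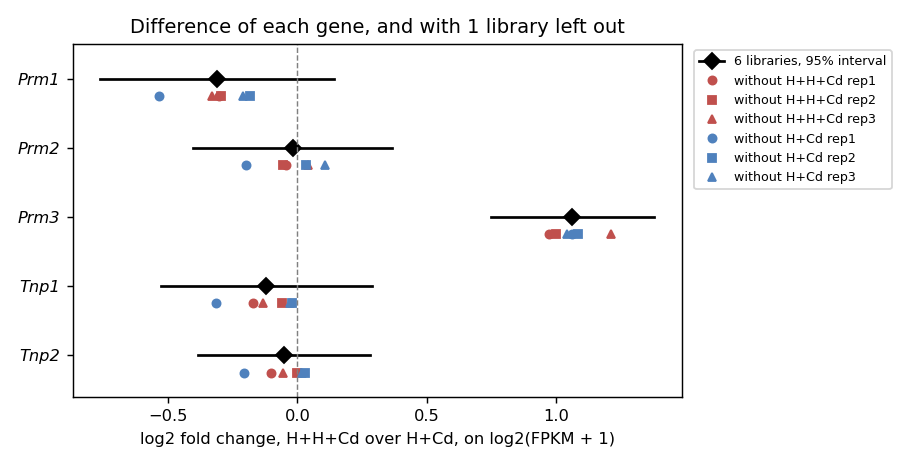
The log2 fold change of each gene, H+H+Cd over H+Cd (horizontal axis), with its 95% interval from limma over 6 libraries (black) and the values with 1 library left out (coloured symbols). Prm3 stays between 0.97 and 1.21, and the other 4 genes move furthest, to between -0.54 and -0.20, when H+Cd rep1 is left out.

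Ratios between genes within a library do not depend on how that library was scaled. The ratio of Prm1 to Prm2, the pair whose balance is often measured in sperm, was 0.525, 0.515 and 0.617 in H+H+Cd libraries, against 0.631, 0.745 and 0.651 in H+Cd libraries. All H+H+Cd libraries were below all H+Cd libraries, including H+Cd rep1, although the gap between the nearest libraries was small. The mean ratio was 0.552 ± 0.0560 in H+H+Cd and 0.676 ± 0.0611 in H+Cd (SD, n = 3 each), a log2 difference of -0.29. The ratio of Prm1 to Tnp1 was 0.593, 0.687 and 0.647 in H+H+Cd libraries, against 0.700, 0.760 and 0.737 in H+Cd libraries. That of Prm1 to Tnp2 was 0.726, 0.828 and 0.804 in H+H+Cd libraries, against 0.848, 0.9997 and 0.976 in H+Cd libraries. Relative to each of the other 3 abundant genes, Prm1 was thus lower in every H+H+Cd library. The log2 difference was -0.19 for Prm1 to Tnp1 and -0.26 for Prm1 to Tnp2.

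The ratios of Prm3 to the other genes were higher in every H+H+Cd library. Its ratio to Prm2 was 0.0647, 0.0616 and 0.0523 in H+H+Cd libraries, against 0.0356, 0.0267 and 0.0228 in H+Cd libraries. Its ratio to Prm1 was 0.123, 0.119 and 0.0848 in H+H+Cd libraries, against 0.0564, 0.0358 and 0.0350 in H+Cd libraries. The log2 differences were 1.38 to Prm1, 1.09 to Prm2, 1.19 to Tnp1 and 1.12 to Tnp2, with no overlap between groups in any of them. The 3 ratios among Prm2, Tnp1 and Tnp2 overlapped between groups. Tnp1 to Tnp2 averaged 1.22 ± 0.0185 in H+H+Cd and 1.28 ± 0.0626 in H+Cd (SD, n = 3 each). Each of the 7 ratios without overlap had an exact two-sided permutation p of 0.1, the smallest that 3 against 3 libraries can give, and 0.143 after adjustment over the 10 ratios. The 7 share genes with each other, 4 holding Prm3 and 3 Prm1. Among all pairs of genes with a mean of at least 100 FPKM, a level chosen after the values were seen, 26.8% of 355746 ratios had no overlap between groups. The 7 differences kept their sign when 1 library was left out, which the lack of overlap makes certain in advance.

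**Figure D4:**
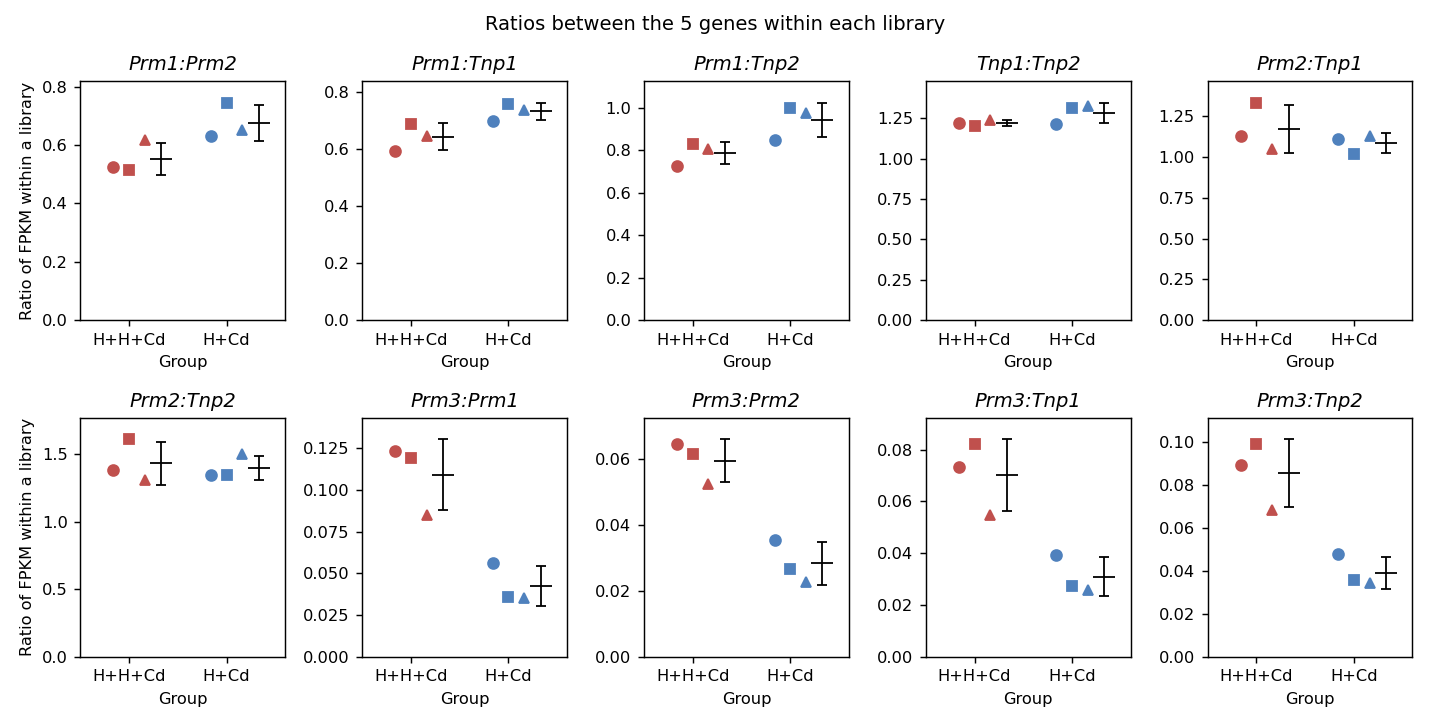
Ratio of FPKM between 2 genes within each library (vertical axes, starting at 0) for the 10 pairs, in H+H+Cd and H+Cd (horizontal axes), with replicates as symbols and the mean with SD (n = 3) as a bar. The 3 ratios of Prm1 to another abundant gene lie lower in H+H+Cd and the 4 ratios of Prm3 lie higher, and the other 3 overlap.

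Across the 6 libraries the abundant genes varied together and Prm3 did not follow them. Pearson's r of log2(FPKM + 1) was 0.99 between Tnp1 and Tnp2, 0.91 between Prm1 and Tnp1 and 0.75 between Prm1 and Prm2. For Prm3 it was -0.56 with Prm1, 0.03 with Prm2, -0.28 with Tnp1 and -0.14 with Tnp2. These are descriptions over 6 libraries that include both groups. In H+Cd rep1 the summed elongating spermatid markers were also the lowest of the 6, at 9778 FPKM, against 11206 and 10779 FPKM in the other H+Cd libraries and 10322, 10282 and 11125 FPKM in H+H+Cd libraries. Single markers went both ways. Smcp had 2365 and Meig1 1460 FPKM in H+Cd rep1, against 2866 and 2660, and 2058 and 1947 FPKM in the other H+Cd libraries. Gapdhs had 654 and Oaz3 1011 FPKM there, against 623 and 555, and 983 and 926 FPKM. Summed round spermatid markers stood at 1311 FPKM in H+Cd rep1, between 1343 and 1238 FPKM in the other H+Cd libraries. The part of spermatid number in the low levels of H+Cd rep1 was not tested.

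**Figure D5:**
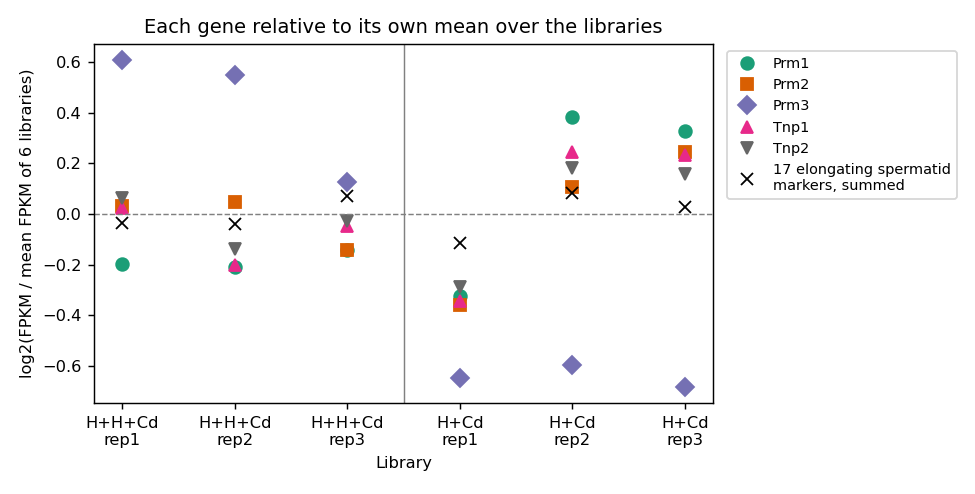
Level of each gene, and of the 17 summed elongating spermatid markers, in each library relative to its own mean over the 6 libraries (vertical axis, log2). The horizontal axis gives the H+H+Cd libraries on the left and the H+Cd libraries on the right. In H+Cd rep1 Prm1, Prm2, Tnp1 and Tnp2 sit together below 0 with the markers slightly below, and Prm3 is below 0 in all 3 H+Cd libraries.

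The 3 genes most like each of the 5 over the 6 libraries were taken from 5535 genes with a mean of at least 10 FPKM, and Odf1 alone was named for more than 1 of the 5. For Tnp1 the leading gene was Odf1 (r = 0.99), a protein of the outer dense fibres of the sperm tail, which was also second for Tnp2 (r = 0.96). Odf1 had 839, 804 and 823 FPKM in H+H+Cd libraries, against 797, 875 and 872 FPKM in H+Cd libraries, so its swings were smaller than those of Tnp1. For Prm1 the leading genes were Capn11, a testis calpain, 4922502D21Rik and Zcchc13, and for Prm2 they were Mrpl12, Herc2 and Cyct, the testis cytochrome c. The remaining genes of the rule were Rps24 and Ift80 for Tnp1, and Gm11808 and Rmdn2 for Tnp2. For Prm3 they were Atp6v1e2, a subunit of the vacuolar proton pump, Ubl4b and Polk, with r of 0.9956, 0.9928 and 0.9897 in that order. Ubl4b had 104, 102 and 93.9 FPKM in H+H+Cd libraries, against 75.2, 72.4 and 72.9 FPKM in H+Cd libraries. It was chosen for its likeness to Prm3, so its pattern is a description.

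The starts of the genes were compared because 4 of the 5 varied together. RefSeq promoter windows on GRCm38.p6, from 250 bases before to 50 after the start, were found for all 5. The RefSeq start of Prm1 lies inside the first exon of Prm1-201. The full cAMP response element TGACGTCA, which the spermatid activator CREM binds, was in none of the 5 windows on either strand, nor was its shortened form TGACG, and they occur in 1.79% and 20.8% of all 32851 windows. The relaxed form TGANNTCA, chosen after the windows were read, was in the windows of Prm1, Prm3 and Tnp1, and is in 14.1% of all windows. The 30 bases around each match are shown on the gene's strand, with the match in capitals.
Prm1, chr16:10796869-10796898: ctggtcctcttTGACTTCAtaattcctagg
Prm3, chr16:10790956-10790985: tggagcctttgTGAGGTCAgtgccacaccc
Tnp1, chr1:73015975-73016004: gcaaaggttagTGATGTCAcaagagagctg
The matches begin 64 bases before the RefSeq start in Prm1, 60 in Prm3 and 94 in Tnp1. The letters TATA occur on the gene strand within the 50 bases before the start in Prm1, Prm2 and Tnp2, at 32, 29 and 35 bases, and in 9.08% of all windows. This motif was also chosen after the windows were read, and 3 stretches show it.
Prm1, chr16:10796839-10796868: ggccactagtatcTATAagaggaagagggt
Prm2, chr16:10792118-10792147: tggggtttaccttTATAtatgagccctctg
Tnp2, chr16:10788674-10788703: taatcggcccagcTATAtaactaggggctg
The longer TATAAA was in the window of Prm2 alone, on the other strand and overlapping its TATA, and is in 13.6% of all windows. Prm3 had no TATA in that stretch, nor had Tnp1, so these letters do not set Prm3 apart from the other 4. These matches are descriptions of the sequence.

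Genes that act around the 5 were read off the same limma test. The exchange machinery, proteins that loosen and remove histones, had 22 of 23 genes tested, 8 with a positive and 14 with a negative log2 fold change. None of them passed the adjusted threshold by limma or by the F-test, 3 of the 22 had an unadjusted limma p below 0.05, as 11.9% of all genes did, and the median was -0.06 beside 0.0007 over all 13769 genes. The smallest p was that of Set, a histone chaperone, with 31.5, 33.3 and 29.5 FPKM in H+H+Cd libraries, against 46.2, 44.5 and 43.7 FPKM in H+Cd libraries. Its groups did not overlap, and the log2 fold change was -0.50 (limma, unadjusted p = 0.000221 and adjusted p = 0.189). Tssk6, a spermatid kinase needed for normal chromatin condensation, averaged 69.5 ± 5.05 FPKM in H+H+Cd and 83.8 ± 4.25 FPKM in H+Cd (SD, n = 3 each; limma adjusted p = 0.358). Prmt6, an arginine methyltransferase, averaged 3.74 ± 0.125 and 4.77 ± 0.344 FPKM in H+H+Cd and H+Cd (SD, n = 3 each; limma adjusted p = 0.374). Hmgb4, the most abundant gene of this list and a testis chromatin protein, averaged 924 ± 67.3 and 939 ± 151 FPKM (SD, n = 3 each).

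Of 22 testis histone variants 12 were measured and tested, 7 with a positive and 5 with a negative log2 fold change, and the median was 0.03. None passed by limma or by the F-test, and 2 of the 12 had an unadjusted limma p below 0.05, beside 11.9% of all genes. Hils1, a linker histone of spermatids and the most abundant of the list, averaged 194.8 ± 7.04 FPKM in H+H+Cd and 225.6 ± 14.7 FPKM in H+Cd (SD, n = 3 each; limma adjusted p = 0.374). H1fnt, another spermatid linker histone, averaged 197 ± 32.1 FPKM in H+H+Cd and 153 ± 13.5 FPKM in H+Cd (SD, n = 3 each; limma adjusted p = 0.404). Hist1h1t, the testis H1 of spermatocytes, had 1.85 to 2.95 FPKM in H+H+Cd libraries and 1.53 to 1.64 FPKM in H+Cd libraries (limma adjusted p = 0.422). These are levels in poly(A) RNA, and how much histone mRNA that selection kept was not tested.

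The list of genes that transcribe, store and translate protamine mRNA had 25 of 25 genes tested, 10 with a positive and 15 with a negative log2 fold change, and a median of -0.06. None passed by limma or by the F-test, and 5 of the 25 had an unadjusted limma p below 0.05, beside 11.9% of all genes. Ybx2, which binds stored protamine mRNA, had 568, 542 and 540 FPKM in H+H+Cd libraries, against 458, 472 and 437 FPKM in H+Cd libraries. Its groups did not overlap, with a log2 fold change of 0.27 (limma, unadjusted p = 0.0018 and adjusted p = 0.329). Crem, the activator of spermatid genes, had 117, 125 and 149.9 FPKM in H+H+Cd libraries, against 111, 95.8 and 104 FPKM in H+Cd libraries (log2 fold change 0.33, limma, adjusted p = 0.390). Ddx25, an RNA helicase of spermatids, averaged 59.3 ± 1.52 FPKM in H+H+Cd and 69.6 ± 3.83 FPKM in H+Cd (SD, n = 3 each; limma adjusted p = 0.358). Pabpc1, a poly(A)-binding protein and the most abundant gene of the list, averaged 976 ± 40.6 and 1158 ± 153 FPKM in H+H+Cd and H+Cd (SD, n = 3 each).

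Summed markers of the cells that hold these mRNAs overlapped between groups. Of 17 elongating spermatid markers 6 had a positive and 11 a negative log2 fold change, with a median of -0.04. None passed by limma or by the F-test, and 2 of the 17 had an unadjusted limma p below 0.05, a share near the 11.9% of all genes. Smcp, the most abundant, averaged 2658 ± 146 and 2630 ± 252 FPKM in H+H+Cd and H+Cd (SD, n = 3 each), a log2 fold change of 0.02. Spem1, a protein of spermatid cytoplasm removal, had 285, 269 and 276 FPKM in H+H+Cd libraries, against 304, 338 and 354 FPKM in H+Cd libraries (log2 fold change -0.26, limma, adjusted p = 0.358). Gapdhs, the sperm glycolytic enzyme, averaged 699 ± 53.2 and 611 ± 50.5 FPKM, and Izumo3 averaged 126 ± 3.46 and 139 ± 3.83 FPKM, in H+H+Cd and H+Cd (SD, n = 3 each). The groups of Izumo3 did not overlap (limma, unadjusted p = 0.0369 and adjusted p = 0.399), nor did those of Gapdhs, with H+H+Cd higher. The share of all genes lower in H+H+Cd without overlap was not counted. By RT-qPCR the study reported lower Izumo3 and Acrv1 mRNA in HFD2D than in HFD1D. That measure was scaled to a ribosomal RNA and is unlike FPKM of poly(A) libraries. Here Acrv1, a round spermatid marker, averaged 160 ± 10.46 and 152 ± 11.65 FPKM in H+H+Cd and H+Cd, with overlap (SD, n = 3 each). Summed markers of round spermatids ran from 1290 to 1294 FPKM in H+H+Cd libraries and from 1238 to 1343 FPKM in H+Cd libraries. Of these 12 markers 7 had a positive and 5 a negative log2 fold change, so opposite moves can cancel in the sum. Acrbp averaged 92.6 ± 3.22 and 71.8 ± 7.44 FPKM without overlap, and Tex29 149 ± 27.1 and 187 ± 18.7 FPKM, in H+H+Cd and H+Cd (SD, n = 3 each). The part of spermatid number in the level of Prm3 was not tested.

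The measured neighbours outside the cluster were expressed far below it. Beyond Tnp2, Socs1, a cytokine signalling inhibitor, averaged 0.552 ± 0.272 and 0.490 ± 0.0932 FPKM and Clec16a averaged 9.19 ± 3.14 and 8.92 ± 2.03 FPKM in H+H+Cd and H+Cd (SD, n = 3 each). Beside Tnp1, the binding proteins of insulin-like growth factors Igfbp5 and Igfbp2 averaged 0.829 ± 0.127 and 3.15 ± 0.906 FPKM in H+H+Cd, against 0.598 ± 0.127 and 4.18 ± 1.38 FPKM in H+Cd (SD, n = 3 each). None of the 4 passed the threshold (limma, lowest adjusted p = 0.529). The higher level of Prm3 was not seen in Prm2, which ends 465 bases before it, or in Tnp2, which starts 1844 bases after it. Igfbp5 and Igfbp2 lie on chromosome 1 and Socs1 was near the 0.5 FPKM filter, so they say little about the surroundings of Prm3. How fragments were shared out between the closely spaced Prm2-201 and Prm3-201 was not tested.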

How the data were processed

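RNA of 6 testes was enriched for poly(A), made into stranded libraries (KAPA) and sequenced on a NovaSeq instrument. The authors estimated transcript levels with StringTie against known transcripts and exported FPKM with Ballgown, and the deposited table holds FPKM only, so depth could not be had and counting errors could not be given. The submitters' processing notes name mm10, with the aligner and versions not given in the sources used here.

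Groups and replicate numbers were taken from the sample titles. Transcript identifiers were matched without version to GENCODE M21 (27018 of 27120, 99.6%), and gene levels were sums of listed transcripts. Tests used the features whose group mean exceeded 0.5 FPKM in 1 or both groups, on log2(FPKM + 1), with limma 3.58.1 in R 4.3.3 (eBayes with trend, two-sided, Benjamini-Hochberg over 13769 genes or 25322 transcripts, threshold 0.05). Fold changes on this scale understate the change of low genes. The labels do not name litters, and the paper states that 1 male was taken from each litter. Each limma p-value weighs the difference between groups against the spread between these libraries, drawn towards that of genes at a similar level. For Prm3 the F-test, which uses its own spread alone, gave an unadjusted p of 0.00229, against 0.000144 by limma. The 10 ratios were compared by exact permutation over 20 assignments. Tables were made with Python 3.11.15 and pandas 2.3.3.

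Named genes were the 5 genes, the 3 most correlated genes of each, 3 genes of smallest p and the most abundant one of 4 lists (exchange machinery, histone variants, mRNA transcription and storage, elongating spermatid markers), measured neighbours and genes of adjacent rank. Epididymis and round spermatid markers were also summed. The genes and lists were chosen with earlier results of these data known. The alternatives were another pseudocount, other filters, rescaling, a replicate block, no trend, an F-test with adjustment and leaving out each library.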

Additional observations from a re-analysis of the deposited data

How the results depend on the processing

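Prm3 kept a positive log2 fold change under all 14 alternatives, between 0.97 and 1.21, and Prm1 a negative one, between -0.54 and -0.18. The filters, the block, the missing trend and the F-test leave a log2 fold change as it is. The groups of Prm3 do not overlap, so leaving out 1 library cannot change its sign. Prm3 passed the threshold only without H+H+Cd replicate 3 (1.21, adjusted p = 0.0236). With 1 library left out, the log2 fold change ran from -0.20 to 0.10 for Prm2 and from -0.20 to 0.03 for Tnp2. The value of Prm2 was 0.04 without H+H+Cd replicate 3, 0.04 without H+Cd replicate 2 and 0.10 without H+Cd replicate 3, and for Prm2-201 these values were 0.04, 0.04 and 0.11. The value of Tnp2 and of Tnp2-201 was 0.029 without H+Cd replicate 2 and 0.02 without H+Cd replicate 3. The log2 ratio of Prm2 to Tnp2 ran from -0.053 to 0.098 with 1 library left out, against 0.03 with all. The cause of these sign changes was not tested.

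The number of genes past the threshold, 1 with all libraries, was 3 with a filter at a mean FPKM above 1, 3 after median-ratio rescaling, 2 after rescaling to the same sum, 3 without the trend, 0 by the F-test (1503 at an unadjusted p below 0.05) and 0 to 3 with 1 library left out. The number of transcripts, 33 with all, ran from 11 to 86 with 1 library left out, the highest without H+Cd replicate 1. With the replicate number as a block it was 1, and that of genes was 0 (1037 at an unadjusted p below 0.05). Libraries of equal number did not deviate together (r = -0.076, -0.002 and -0.163), so they share only a number. The block changed no call of the 5 genes. Leaving out mitochondrial mRNAs put the mean share of the 5 genes in summed FPKM at 3.54% in H+H+Cd and 3.798% in H+Cd. With them in the sum the shares were 3.39% and 3.67%.

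With 3 libraries a group and no read counts, differences of Prm1, Prm2, Tnp1 and Tnp2 smaller than their intervals were not detectable.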
